A study of Mus musculus with 2 samples.

Results

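The genes described here are 10 genes of Fc receptor and Trem signalling. They are the receptors Fcgr1, Fcgr2b, Fcgr3, Fcgr4, Trem1 and Trem2, the adaptors Fcer1g and Tyrobp, the kinase Syk and the transcription factor Spi1. They were taken by symbol, as a group chosen for its function with earlier results of these data known. All 10 were found among the 24346 symbols listed for each library. Bulk RNA-seq had been performed on GFP+CD4+ cells of Foxp3-DTR-GFP (FDG) mice, in which GFP is expressed from the Foxp3 locus and marks regulatory T cells (Tregs). On day 15 after intratracheal administration of 50 μg bleomycin (BLM), which injures the lung and leads to fibrosis, these cells were sorted from the spleen (splenic Tregs) and from the lung (lung Tregs) of mice 10 to 16 weeks old. Each tissue gave 1 library, made from cells pooled over 3 mice. Both groups had received BLM, so the comparison is between tissues of injured mice and holds no uninjured group. Before staining, cells were blocked with anti-CD16/32 antibody, which binds the proteins of Fcgr3 and Fcgr2b.

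Fc receptors bind the constant part of antibodies. The activating receptors for IgG (Fcgr1, Fcgr3 and Fcgr4) signal through the adaptor Fcer1g, and Trem1 and Trem2 signal through the adaptor Tyrobp, also known as DAP12. Both adaptors carry an ITAM, a paired tyrosine motif that recruits the kinase Syk once phosphorylated, whereas Fcgr2b carries an inhibitory motif, the ITIM, and opposes these signals. Most of these genes are known from macrophages, monocytes, neutrophils and dendritic cells, where Spi1 (PU.1) drives many of them. Fcer1g and Tyrobp are also used by NK cells and mast cells, Fcgr2b and Spi1 are also expressed in B cells, and conventional T cells signal through the ITAMs of CD3 and the kinase Zap70.

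The signalling motifs of the adaptors and of the inhibitory receptor are shown first, because the roles of these genes rest on them. They were read from GENCODE M21 transcripts on GRCm38, the build also known as mm10, and are coding bases 5′ to 3′ with the codons of the motif's tyrosines and of its leucines or isoleucine in capitals. The Fcer1g stretch lies at chr1:171229889-171230072 on the minus strand across exons 4 and 5 and codes for residues 65 to 79 of 86. The Tyrobp stretch lies at chr7:30415670-30417382 on the plus strand across exons 4 and 5 and codes for residues 92 to 106 of 114. The Fcgr2b stretch lies at chr1:170961071-170961088 on the minus strand in exon 8 and codes for residues 317 to 322 of 340.
Fcer1g ITAM: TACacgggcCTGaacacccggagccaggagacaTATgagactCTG
Tyrobp ITAM: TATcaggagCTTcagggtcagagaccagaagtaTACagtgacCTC
Fcgr2b ITIM: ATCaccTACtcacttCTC
A search of the coding sequences for the ITAM pattern, with a gap of 6 to 8 residues inside it, found it in these 2 adaptors and in none of the other 8 genes. The shorter and looser ITIM pattern was found in 5 genes, Fcgr2b and 4 others (Fcgr1, Fcgr4, Fcer1g and Tyrobp), so its letters alone do not set the inhibitory receptor apart.

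The 10 genes lie on 6 chromosomes of GRCm38. Fcgr2b (chr1:170958617-170976547), Fcgr4 (chr1:171018920-171029761), Fcgr3 (chr1:171051174-171064935) and Fcer1g (chr1:171229572-171234365) form a cluster on chromosome 1, with Fcgr4 on the plus strand and the others on the minus strand. Trem1 (chr17:48232768-48246924) and Trem2 (chr17:48346401-48354147) lie on the plus strand of chromosome 17. Fcgr1 lies alone at chr3:96282909-96293969 on the minus strand, and Tyrobp (chr7:30413760-30417585), Syk (chr13:52583173-52648792) and Spi1 (chr2:91082390-91115756) each lie on the plus strand.

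Levels are given as FPKM, which scale the reads of a gene to its length and to the total of the library. Their sums were 599633 for spleen and 808853 for lung, and 9542 and 10638 symbols were listed at 0. Read numbers were estimated from the steps between low FPKM and summed to 9860858 in spleen and 12878352 in lung. Intervals below are 95% exact intervals of these estimated reads, and they cover counting error only. SMART-Seq cDNA is amplified by PCR without molecular identifiers, so reads need not be separate molecules. The intervals can therefore be too narrow even for counting error. With 1 library per tissue there is no replicate check, so no p-value is given and "higher" or "lower" refers to these libraries. Markers of the labelled cell type were present in both libraries, with Cd3e at 513 FPKM in spleen and 369 in lung. Cd4 was at 195 and 179, and Foxp3 at 18.7 and 41.8. Markers of other cell types were present too, such as the macrophage marker Lyz2 at 376 and 24947 FPKM. These values therefore do not show that the libraries held Tregs alone.

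All 10 genes were listed above 0 in both libraries and were higher in lung Tregs than in splenic Tregs as deposited, although Syk became lower in lung once the values were rescaled to TPM. Ratios are of lung FPKM to splenic FPKM with values under 0.1 set to 0.1. Of the 10 genes, 9 were more than 2-fold higher in lung, and 17.8% of the 12094 genes tested, those that reached 1 FPKM in either library, passed the same mark. More than 20-fold higher was 1 of the 10, Trem2, against 3.27% of all genes tested. None was more than 2-fold or more than 20-fold lower in lung, against 15.5% and 2.35% of all genes tested. The median log2 ratio of the 10 genes was 2.69, a 6.43-fold difference, and that of all genes tested was 0.03. Without Trem2 the median was 2.62. The 10 genes were chosen with earlier results of these data known, so these shares and medians are descriptive only. The ratios of 8 genes lay between 3.5-fold and 15-fold, with Trem2 above this range and Syk below it. In total, the 10 genes took 0.0598% of the FPKM sum in spleen and 0.311% in lung.

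Macrophage markers also differed between the libraries. For the counts that follow, the shares over all genes tested were 17.8% more than 2-fold higher (13.1% in TPM) and 15.5% more than 2-fold lower. Of 10 macrophage markers, 8 were more than 2-fold higher in lung (7 in TPM), none was at 0 in either library, and their FPKM summed to 665 in spleen and 26365 in lung, mostly Lyz2 at 376 and 24947 FPKM. All 6 alveolar macrophage markers were more than 2-fold higher in lung and summed to 24.0 and 1350 FPKM, with Car4 at 0 in spleen. The splenic values of Siglecf and Fabp4 rest on about 0.964 and 3.18 reads. The 4 markers of red pulp macrophages, the macrophages of the spleen, were all more than 2-fold lower in lung and summed to 187 and 42.9 FPKM, with Vcam1 at 0 in lung. A filter of 1 FPKM in both libraries left 3 alveolar markers, all 3 more than 2-fold higher, and 1 red pulp marker, more than 2-fold lower. The part of macrophages in the higher values of the 10 genes was not tested. In bulk RNA a difference in the number of cells of a type and a difference in RNA per cell cannot be told apart.

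**Figure D1:**
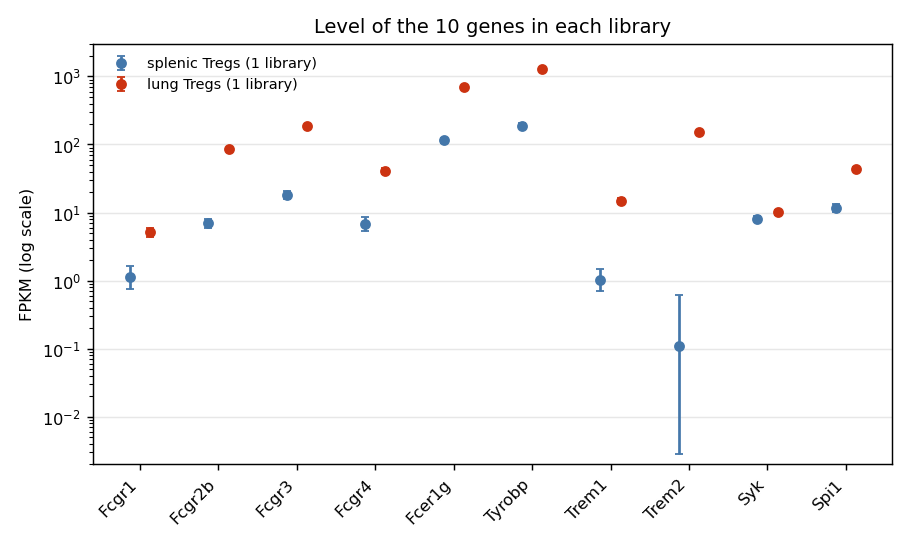
FPKM of the 10 genes in splenic Tregs (blue) and lung Tregs (red) on a log axis, 1 point per library, with bars for the 95% counting interval. Every lung point lies above the splenic point of the same gene as deposited, the pair of Syk lies closest (8.16 and 10.1 FPKM, reversed in TPM), and Trem2 lies farthest apart (0.109 and 151 FPKM).

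Fcgr3, which encodes the low-affinity activating receptor CD16, was the most highly expressed of the 4 Fcgr genes per length in both libraries. It was at 18.03 FPKM in spleen and 185 FPKM in lung, from about 213 and 2484 reads, and was 10.3-fold higher in lung (interval 8.93 to 11.9). Fcgr2b, which encodes the inhibitory receptor CD32B, was at 7.01 FPKM in spleen and 85.9 FPKM in lung. This is a 12.3-fold difference (10.4 to 14.4), so the inhibitory receptor was higher in lung along with the activating ones. Its read numbers depend on which of its transcripts is assumed, from 91.1 to 242 in spleen and from 1267 to 3371 in lung.

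Fcgr4, an activating receptor for IgG2 subclasses, was at 6.85 FPKM in spleen and 40.9 FPKM in lung, 5.96-fold higher (4.69 to 7.76). Fcgr1, which encodes the high-affinity receptor CD64 found on macrophages and monocytes, was the lowest Fcgr gene, at 1.13 FPKM in spleen and 5.10 FPKM in lung. About 28.0 and 143 reads lay behind these values, and the ratio was 4.50 (2.98 to 7.01). The intervals of Fcgr2b and Fcgr3 overlapped each other, as did those of Fcgr4 and Fcgr1, but the first pair lay above Fcgr4 and Fcgr1 without overlap.

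Within a library, ratios between genes do not depend on how the library was scaled. For every unit of Fcgr2b there were 2.57 units of Fcgr3 in spleen (2.09 to 3.17) and 2.16 in lung (2.04 to 2.29), intervals that overlapped. Fcgr4 was a smaller part in lung, at 0.978 of Fcgr2b in spleen (0.728 to 1.28) and 0.476 in lung (0.431 to 0.524). Fcgr1 was 0.162 of Fcgr2b in spleen (0.104 to 0.242) and 0.0594 in lung (0.0498 to 0.0704). The 3 activating receptors summed to 3.71 times Fcgr2b in spleen and 2.69 times in lung. Activating receptors thus exceeded the inhibitory receptor per length in both libraries. The factor was smaller in lung, but no interval was computed for the sum, and the intervals of Fcgr3, its largest part, overlapped.

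Fcgr2b and Fcgr3 lie in 1 cluster on chromosome 1 and share coding sequence, which bears on how their reads could be told apart. The stretch shown lies at chr1:170966560-170968081 in Fcgr2b and at chr1:171054053-171057792 in Fcgr3, on the minus strand of GRCm38, across exons 3 and 4 of each. Over its 243 bases the genes differ at 1 position, T130G, with the Fcgr2b base first, then the position counted from 1 at the 5′ end of the stretch, then the Fcgr3 base. The capital marks that base.
Fcgr2b: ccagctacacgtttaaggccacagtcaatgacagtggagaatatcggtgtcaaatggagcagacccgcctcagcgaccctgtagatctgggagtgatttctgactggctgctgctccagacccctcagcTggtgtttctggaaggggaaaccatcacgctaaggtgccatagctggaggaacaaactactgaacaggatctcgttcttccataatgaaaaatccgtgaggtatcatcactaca
Fcgr3: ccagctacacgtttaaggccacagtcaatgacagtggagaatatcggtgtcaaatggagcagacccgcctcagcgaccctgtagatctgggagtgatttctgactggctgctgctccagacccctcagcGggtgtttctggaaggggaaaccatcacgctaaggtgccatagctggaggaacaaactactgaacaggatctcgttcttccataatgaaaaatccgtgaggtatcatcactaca
A 75-base read that falls in the identical runs of 129 and 113 bases has the same letters in both genes. Of all 75-base windows of the Fcgr3 transcript, 94 of 1273 (7.38%) also occur in Fcgr2b. Seen from Fcgr2b, the same 94 windows are 2.71% of the longer transcript (3544 nt) and 6.77% of the shorter one (1462 nt). No 75-base window of either gene occurs in Fcgr1 or Fcgr4. The share of reads that the authors' counting gave to the wrong gene of this pair is uncertain.

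The adaptors were the most highly expressed of the 10 genes per length. Tyrobp, the adaptor of the Trem receptors, was at 189 FPKM in spleen and 1271 FPKM in lung, from about 697 and 5326 reads, a 6.73-fold difference (6.22 to 7.29). It held rank 505 by FPKM among all symbols in spleen and rank 96 in lung. Fcer1g, the adaptor of the activating Fc receptors, was at 116 FPKM in spleen and 710.2 FPKM in lung, 6.15-fold higher (5.62 to 6.73). Together they made up 85.0% of the FPKM sum of the 10 genes in spleen and 78.7% in lung. Their proportion to each other was similar, with 1.63 units of Tyrobp per unit of Fcer1g in spleen (1.46 to 1.83) and 1.79 in lung (1.72 to 1.87), intervals that overlapped. Fcgr3 per unit of Fcer1g was 0.156 in spleen (0.133 to 0.183) and 0.261 in lung (0.248 to 0.274), intervals that did not overlap.

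Trem2, a lipid-binding and lipoprotein-binding receptor of macrophages and microglia, was at 0.109 FPKM in spleen and 151 FPKM in lung. The splenic value rests on about 0.978 reads, that is 1 read, against about 1534 in lung, and the ratio of 1381 has an interval of 242 to 53400. With a floor of 3 reads in spleen the ratio was 450.3, which is not a lower bound, since the interval begins at 242. Trem2 was the lowest of the 10 genes in spleen and the fourth in lung, and its ratio ranked 23 among the 12094 genes tested. Trem1, a receptor of neutrophils and monocytes that amplifies inflammatory responses, was at 1.03 FPKM in spleen and 14.8 FPKM in lung, about 29.7 and 486 reads. It was 14.4-fold higher in lung (9.87 to 21.4), the next ratio after that of Trem2. Its interval overlapped that of Fcgr2b and not that of Trem2.

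Set against their shared adaptor, the Trem receptors differed from each other. Trem2 was 0.000578 of Tyrobp in spleen (1.49e-05 to 0.0033) and 0.119 in lung (0.112 to 0.126). Trem1 was 0.00544 of Tyrobp in spleen (0.00368 to 0.00792) and 0.0117 in lung (0.0106 to 0.0128). Trem1 was therefore the higher of the 2 Trem receptors in spleen, and Trem2 in lung, where it was 10.2 times Trem1 (9.18 to 11.3).

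Syk, the kinase that binds phosphorylated ITAMs, had the smallest ratio. It was at 8.16 FPKM in spleen and 10.1 FPKM in lung, about 426 and 600 reads, a 1.24-fold difference (1.09 to 1.41) whose log2 ratio was -0.12 after rescaling to TPM. Its ratio was at percentile 62.5 of all genes tested, whereas the other 9 genes lay between percentile 89.6 (Spi1) and 99.8 (Trem2). Per unit of Tyrobp, Syk was 0.0432 in spleen (0.0382 to 0.0488) and 0.00796 in lung (0.00731 to 0.00867), 5.42 times less in lung. Zap70, the related kinase of the T cell receptor, was at 121 FPKM in spleen and 94.7 FPKM in lung. Syk was 0.0673 of Zap70 in spleen (0.0606 to 0.0746) and 0.107 in lung (0.0976 to 0.117), so Zap70 was the more highly expressed kinase per length in both libraries.

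Spi1, the myeloid and B cell transcription factor PU.1, was at 11.6 FPKM in spleen and 44.2 FPKM in lung, about 219 and 949.6 reads. It was 3.82-fold higher in lung (3.30 to 4.45). This ratio was smaller than that of either adaptor, and Spi1 per unit of Tyrobp was 0.0613 in spleen (0.0524 to 0.0714) and 0.0347 in lung (0.0324 to 0.0373). Spic, a related factor of red pulp macrophages, had the opposite direction, at 21.6 FPKM in spleen and 0.402 FPKM in lung. It was 53.8-fold lower in lung (27.2 to 142), where its value rests on about 7.36 reads.

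**Figure D2:**
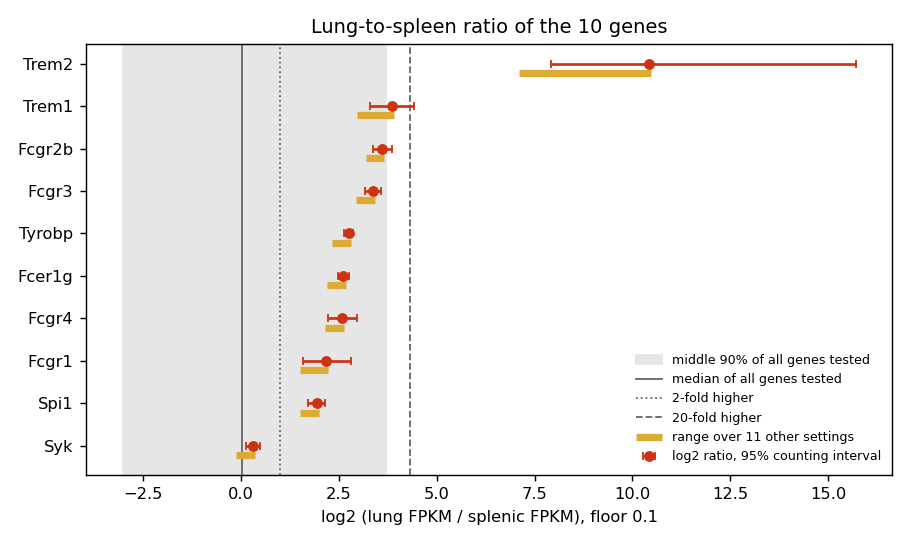
Log2 ratio of lung to splenic FPKM for each gene (red points, bars for the 95% counting interval), with the range over the other settings in yellow and the middle 90% of all genes tested in grey, from -3.01 to 3.72. Trem2 (10.43) and Trem1 (3.85) lie above the grey band, 7 genes lie in its upper part, and the yellow range of Syk crosses 0.

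In order of their ratios the genes were Trem2, Trem1, Fcgr2b, Fcgr3, Tyrobp, Fcer1g, Fcgr4, Fcgr1, Spi1 and Syk. Intervals of neighbours in this order did not overlap between Trem2 and Trem1, between Fcgr3 and Tyrobp, and between Spi1 and Syk. All other neighbours overlapped, so their order was not resolved even by counting error alone. By level, the interval of Fcgr2b overlapped Syk and Fcgr4 in spleen, Fcgr1 overlapped Trem1 in spleen, and Spi1 overlapped Fcgr4 in lung.

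**Figure D3:**
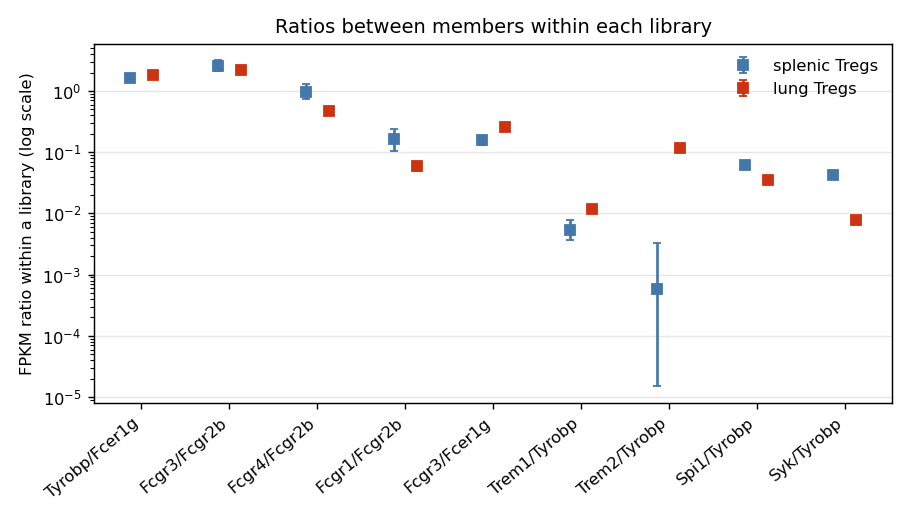
FPKM of a gene divided by FPKM of another gene in the same library, on a log axis, for splenic Tregs (blue) and lung Tregs (red), with bars for the 95% counting interval. Tyrobp/Fcer1g and Fcgr3/Fcgr2b were alike within their intervals, Trem2/Tyrobp was 205 times higher in lung, and Syk/Tyrobp was 5.42 times lower in lung.

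The other genes of these pathways were counted in lists set by function, with earlier results of these data known, and given whole. Over 9 lists without double counting, 96 of 103 genes had at least 1 FPKM in a library, of which 41 were more than 2-fold higher and 11 more than 2-fold lower in lung (34 and 16 in TPM). Of the 103 genes, 11 are also among the markers of cells other than T cells, so list counts and marker counts are not fully separate. Of all genes tested, 17.8% were more than 2-fold higher in lung and 15.5% more than 2-fold lower. In TPM the share more than 2-fold higher was 13.1%, and the median log2 ratio of all genes tested was -0.40. The shares given beside the lists below are those before rescaling, so they are not the background of the TPM counts. The median log2 ratio of the 96 genes was 0.60, or 0.17 in TPM. Because rescaling to TPM moved each log2 ratio by -0.43 and rescaling to equal upper quartiles by -0.18, counts over 2-fold that moved are given for TPM as well.

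Receptors that use the same adaptors went in both directions, with 8 of 14 genes more than 2-fold higher and 3 more than 2-fold lower in lung (8 and 5 in TPM), and a median log2 ratio of 2.32. The shares over all genes tested were 17.8% and 15.5%. Clec5a, a Tyrobp-coupled lectin of myeloid cells, was at 0.136 FPKM in spleen and 14.7 FPKM in lung, a ratio of 108 (36.1 to 518) that rests on about 2.96 splenic reads. Lilra5 was at 0.355 FPKM in spleen and 16.98 FPKM in lung (47.8-fold), and Clec4d, a lectin receptor that signals through Fcer1g, was at 0.428 and 10.8 FPKM (25.4-fold). Ncr1, the NK cell receptor NKp46, went the other way, at 2.69 FPKM in spleen and 0 in lung. It was at least 10.2-fold lower in lung by the low end of the 95% interval, and 13.2-fold lower when 3 reads are allowed in lung.

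Of the Fc receptors outside the group of 10, 2 of 9 genes were more than 2-fold higher and 3 more than 2-fold lower in lung (1 and 3 in TPM), with a median log2 ratio of 0.70. The higher count was near the 17.8% of all genes tested, and 15.5% of all genes tested were more than 2-fold lower. Fcrls, an Fc receptor-like scavenger gene, was listed at 0 in spleen and at 14.8 FPKM in lung. It was at least 85.5-fold higher in lung by the low end of the 95% interval, and 106-fold higher with 3 reads allowed in spleen. Fcgrt, the neonatal Fc receptor that recycles IgG, was at 12.6 and 25.9 FPKM, a ratio of 2.06 that was under 2-fold in TPM. Fcer1a, the IgE-binding chain of mast cells and basophils, was at 0.708 and 1.25 FPKM with an interval of the ratio from 0.612 to 5.72. Fcer2a, the low-affinity IgE receptor CD23 of B cells, was at 17.2 FPKM in spleen and 3.97 FPKM in lung, 4.34-fold lower in lung.

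In the list of Syk pathway genes, 10 of 15 were within 2-fold, near the 66.8% of all genes tested. Of the others, 4 were more than 2-fold higher and 1 more than 2-fold lower in lung (2 and 2 in TPM), and the median log2 ratio of 0.20 became -0.23 in TPM. Card9, the adaptor that links Syk to NF-κB in myeloid cells, was at 1.38 FPKM in spleen and 21.9 FPKM in lung (15.9-fold), and Lat2, an adaptor of myeloid and B cells, was at 9.75 and 27.4 FPKM (2.81-fold). Of the Src-family kinases that phosphorylate ITAMs in myeloid cells, Lyn was at 17.2 and 35.7 FPKM and Fgr at 8.06 and 11.9 FPKM, and in TPM neither was more than 2-fold apart. Pik3cd, a PI3-kinase subunit of lymphocytes, was at 94.1 FPKM in spleen and 37.5 FPKM in lung, 2.51-fold lower in lung.

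Of 11 genes in the ITAM pathway of the T cell receptor, 10 were within 2-fold, against the same 66.8% of all genes tested. None was more than 2-fold higher in lung, 1 was more than 2-fold lower, and the median log2 ratio was -0.28. Cd247, the CD3 zeta chain, had 296 FPKM in spleen against 245 FPKM in lung, and Cd3g was at 902 and 1103 FPKM. Fcer1g, which can take the place of the zeta chain in some T cells, was 0.390 of Cd247 in spleen (0.357 to 0.426) and 2.90 in lung (2.78 to 3.03).

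Of 15 genes of inhibitory receptors, phosphatases and their adaptors, 9 were more than 2-fold higher and none more than 2-fold lower in lung (7 and 0 in TPM), with a median log2 ratio of 1.34. All genes tested had 17.8% higher and 15.5% lower by the same mark. The ITIM receptor Lilrb4a was at 24.5 FPKM in spleen and 283 FPKM in lung (11.6-fold), Cd300lf was at 6.71 and 53.3 FPKM (7.94-fold), and Clec4a2 was at 2.02 and 14.4 FPKM (7.11-fold). Of the phosphatases that ITIMs recruit, Inpp5d (SHIP1), the partner of Fcgr2b, was at 46.6 and 45.3 FPKM and Ptpn6 (SHP-1) at 211 and 150.5 FPKM, both less than 2-fold apart. Fcgr2b was 0.1505 of Inpp5d in spleen (0.128 to 0.177) and 1.89 in lung (1.79 to 2.01).

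**Figure D4:**
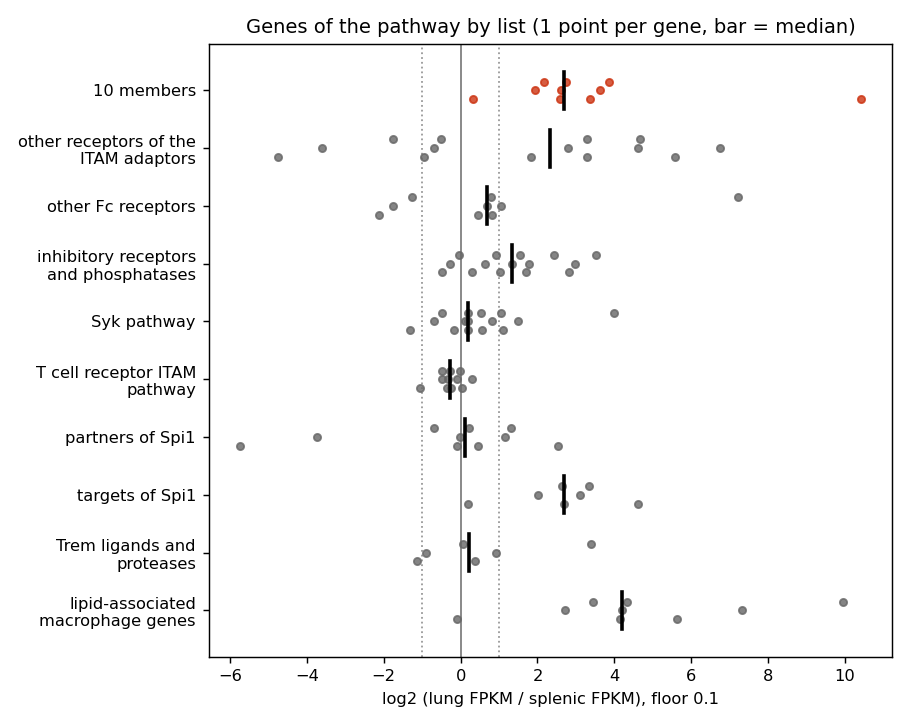
Log2 ratio of lung to splenic FPKM for the 10 genes (red) and for the genes of the 9 pathway lists (grey), 1 point per gene with at least 1 FPKM in a library, black bars for medians and dotted lines at 2-fold. The 10 genes have a median of 2.69, the T cell receptor list has -0.28, and the Syk pathway list has 0.20, which turns negative in TPM.

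Among known targets of PU.1, 6 of 7 genes were more than 2-fold higher in lung and none more than 2-fold lower, with a median log2 ratio of 2.70. Over all genes tested the shares were 17.8% and 15.5%. Csf1r, Cd14, Cd68 and Itgam are also among the macrophage markers, and Csf3r is among the neutrophil markers. The count of targets is therefore not separate from the marker counts, and activity of PU.1 was not tested. Cd14, the lipopolysaccharide co-receptor, was at 11.4 FPKM in spleen and 277 FPKM in lung (24.4-fold), Csf2ra, a GM-CSF receptor chain, was at 5.35 and 54.5 FPKM (10.2-fold), and Cd68 was at 43.0 and 368 FPKM (8.57-fold). Csf1r, the M-CSF receptor, was the exception, at 43.8 and 50.1 FPKM, a ratio of 1.14 that was under 1 in TPM. Tyrobp was 4.31 times Csf1r in spleen (3.94 to 4.71) and 25.4 times in lung (24.1 to 26.7). Transcription factors that work with PU.1 had 3 of 10 genes more than 2-fold higher and 2 more than 2-fold lower (1 and 3 in TPM), against the same 17.8% and 15.5%. Cebpb had the highest ratio, at 47.0 FPKM in spleen and 272 FPKM in lung (5.79-fold).

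Promoters of the 10 genes were searched for the letters GAGGAA, a core shared by PU.1 and other ETS factors, on both strands. RefSeq promoters of GRCm38.p6, from 250 bases before to 50 after the start, were at hand for 8 of the genes, and 6 of these held the letters (Fcgr1, Fcgr3, Fcgr4, Syk, Trem1 and Trem2). Some genes had more than 1 entry, and counted by entry the letters were in 7 of 10, against 28.3% of 32851 promoters. The longer GAGGAAGT, which contains the first motif, was found in Fcgr4 alone, against 3.20% of all promoters. The 250 bases before the start are shown for Trem2, the gene of the highest ratio, at chr17:48346151-48346400, and for Fcgr4, the gene with the longer motif, at chr1:171018676-171018925, both on the plus strand. Capitals mark the motif, which lies on the opposite strand and so reads as its reverse complement.
Trem2: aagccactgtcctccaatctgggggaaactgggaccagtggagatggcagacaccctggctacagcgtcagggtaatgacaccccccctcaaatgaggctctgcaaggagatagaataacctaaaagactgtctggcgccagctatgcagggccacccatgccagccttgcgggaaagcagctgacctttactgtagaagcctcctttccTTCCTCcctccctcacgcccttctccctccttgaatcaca
Fcgr4: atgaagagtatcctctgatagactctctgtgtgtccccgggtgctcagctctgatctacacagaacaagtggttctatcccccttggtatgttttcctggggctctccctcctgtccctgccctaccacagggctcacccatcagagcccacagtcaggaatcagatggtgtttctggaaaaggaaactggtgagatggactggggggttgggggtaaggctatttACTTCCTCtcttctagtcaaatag
Syk, with the smallest ratio, held the same 6 letters as Trem2, with the highest. These matches are letters in a window, and binding was not measured.

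Ligands and proteases of the Trem receptors gave 1 of 6 genes more than 2-fold higher and 1 more than 2-fold lower in lung (1 and 2 in TPM). The counts before rescaling were near the 17.8% and 15.5% of all genes tested. Apoe, a ligand of Trem2, was at 203 FPKM in spleen and 2142 FPKM in lung (10.6-fold), and Trem2 was 0.000539 of Apoe in spleen (1.4e-05 to 0.0031) and 0.0704 in lung (0.0668 to 0.0741). Pglyrp1, a ligand of Trem1 made by neutrophils, was at 95.5 and 181 FPKM, a ratio of 1.89. Clu, another ligand of Trem2, was at 5.12 FPKM in spleen and 2.34 FPKM in lung, 2.19-fold lower in lung.

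Genes known together with Trem2 from lipid-associated macrophages had a median log2 ratio of 4.21, the highest of the 9 pathway lists, with 8 of 9 genes more than 2-fold higher in lung, against 17.8% of all genes tested. Spp1 (osteopontin) was at 4.62 FPKM in spleen and 4560 FPKM in lung (988-fold), Gpnmb was at 0.725 and 117 FPKM (161-fold), and Lpl, lipoprotein lipase, was at 2.46 and 123 FPKM (50.02-fold). Cst7, which is also expressed in lymphocytes, was at 157 FPKM in spleen and 147 FPKM in lung.

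Tyrobp and Trem2 were also set against single marker genes, which themselves differed between the libraries by unlike factors. Tyrobp was 4.40 times Cd68 in spleen (3.90 to 4.96) and 3.45 times in lung (3.32 to 3.59), but 0.502 of Lyz2 in spleen and 0.0510 in lung. Trem2 was 0.00254 of Cd68 in spleen (6.57e-05 to 0.0146) and 0.410 in lung (0.386 to 0.434). Against a T cell gene, Tyrobp was 0.368 of Cd3e in spleen (0.340 to 0.398) and 3.44 times Cd3e in lung (3.32 to 3.58).

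Markers of other cells known to use these genes went in both directions. For comparison, 17.8% of all genes tested were more than 2-fold higher and 15.5% more than 2-fold lower in lung. Of the 7 listed neutrophil markers, 3 were more than 2-fold higher and 2 more than 2-fold lower in lung, with sums of 463 and 1200 FPKM, and Ngp and Mpo were at 0 in lung while S100a8 was at 276 and 804 FPKM. Of the B cell markers, 2 of 5 tested were more than 2-fold lower in lung (5 of 5 in TPM) and none higher, with sums over the 6 listed of 253 and 132 FPKM. Fcgr2b was 0.0871 of the B cell gene Cd79a in spleen (0.0737 to 0.103) and 2.83 times Cd79a in lung (2.56 to 3.14).

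The 6 NK cell markers summed to 11.5 FPKM in spleen and 7.05 in lung, with Ncr1 at 0 in lung and Klra8 at or near 0 in both libraries, and the 6 mast cell and basophil markers to 2.65 and 1.35 FPKM, with Mcpt8 at 0 in both and Prss34 and Tpsb2 at 0 in lung and under 1 FPKM in spleen. Of 5 dendritic cell markers 2 were more than 2-fold higher and 1 lower (2 and 2 in TPM), with sums of 11.3 and 31.1 FPKM and none at 0. The 5 platelet markers summed to 24.6 and 65.5 FPKM, all of it from Pf4 in lung, where the other 4 were at 0. The 7 T cell markers summed to 4067 and 3922 FPKM with none more than 2-fold apart, and the 6 Treg markers to 911 and 1693 FPKM with 2 more than 2-fold higher and 1 lower (1 and 2 in TPM). The part of each of these cell types in the values of the 10 genes was not tested.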

How the data were processed

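Bulk RNA-seq libraries of GFP+CD4+ cells from spleen and lung of BLM-treated FDG mice (1 library each, 3 mice pooled) were analysed and assigned to tissues from their labels. Full-length cDNA was prepared with SMART-Seq HT and Nextera XT and sequenced as 75-base single-end reads. Per the submitters' processing notes, TopHat2 2.1.1, Bowtie2 2.2.8, SAMtools 0.1.18 and Cuffdiff 2.2.1 were used with mm10. The deposited values are FPKM per gene symbol, as the authors computed them. The annotation and Cuffdiff's options are not given in the sources used here, and an FPKM depends on both, on transcript length and on the library's total.

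From these FPKM, values under 0.1 were set to 0.1 and lung was divided by spleen, over genes that reached 1 FPKM in either library. Marks of 2-fold and 20-fold were used, the latter being the study's. No test was possible with 1 library per tissue. Reads were estimated as FPKM times effective length over the value of 1 read (0.0965 FPKM in spleen and 0.0850 in lung at 1 kb). Effective lengths came from GENCODE M21 transcripts tied to RefSeq, found for 23688 symbols (97.3%), with fragments of mean 200, SD 80 and at least 73 bases, chosen among 70 to 76. Within 0.1 of whole reads lay 72.8% of low values in spleen and 75.1% in lung. Genes with several transcripts have approximate reads. Ratio intervals are exact binomial and level intervals exact Poisson, at 95%. The steps were tested on simulated data.

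The 10 genes and all lists were chosen with earlier results of these data known. From each pathway list the 3 highest and the 1 lowest ratio are named, besides genes paired with a member by function (Lyn, Fgr, Inpp5d, Ptpn6, Apoe, Pglyrp1, Zap70 and Cd247, with 1 further gene not reported here), marker genes, and neighbours taken by position. Lilrb4 was matched as Lilrb4a by synonym, and Ly6g was not analysed here. Other settings were floors, pseudocounts, filters, and scalings that used TPM, equal median ratios, equal upper quartiles or equal sums of T cell markers. Scripts ran in Python 3.11.15 (scipy 1.17.1, pandas 2.3.3, numpy 2.4.6), and plots used matplotlib 3.10.9.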

Additional observations from a re-analysis of the deposited data

How the results depend on the processing

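No paired analysis was possible because each tissue has 1 library. Under 11 other settings (a floor of 0.01 or 1 FPKM, a pseudocount of 0.1 or 1 FPKM, 4 rescalings and 3 filters), 9 of the 10 genes were more than 2-fold higher in lung, except that a filter of 1 FPKM in both libraries removed Trem2 and left 8 of 9, with 0 more than 20-fold higher. Of 109 values of single genes under these settings, 96 moved by less than their counting interval, 12 by more, and 1 turned: the log2 ratio of Syk was -0.12 in TPM. The median log2 ratio of the 10 genes was 2.25 in TPM and 2.51 with equal upper quartiles, and the log2 ratio of Trem2 ranged from 7.10 to 10.48. The estimated reads of the 10 genes summed to 2413 in spleen and 18240 in lung, and to 3186 and 24411 with transcript length in place of effective length. With windows of 50 bases, 12.8% of Fcgr3 and 4.75% or 11.7% of Fcgr2b were shared. Over all genes tested, the 395 genes more than 20-fold higher became 102 with a floor of 1 FPKM, 78 with a pseudocount of 1 FPKM and 33 with 1 FPKM in both libraries. The 284 more than 20-fold lower became 500 with a floor of 0.01 FPKM, 51 with a floor of 1 FPKM, 49 with a pseudocount of 1 FPKM, 459 in TPM and 2 with 1 FPKM in both libraries, and the 2149 more than 2-fold higher became 1098 with 1 FPKM in both libraries. Depth limits Trem2 in spleen, at about 1 read, and variation between mice cannot be estimated from pooled libraries.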

Other observations

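The genes lying between the members on the chromosome did not share their direction as a group. On chromosome 1 of GRCm38, from 170960558 to 171234349 in the RefSeq annotation, 11 listed genes lie from Fcgr2b to Fcer1g, of which 4 are the members Fcgr2b, Fcgr4, Fcgr3 and Fcer1g. Of the other 7, 1 was more than 2-fold higher in lung (Cfap126, at 1.05 in spleen and 5.35 FPKM in lung) and 2 were more than 2-fold lower (Tomm40l, at 8.93 and 2.85 FPKM, and Apoa2, at 0.545 FPKM in spleen and 0 in lung). Sdhc, a mitochondrial gene between Fcgr3 and Fcer1g, was at 62.5 FPKM in spleen and 84.8 FPKM in lung. These neighbours were taken by position, not by their values.

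On chromosome 17, from 48232713 to 48352276, the Trem cluster holds 6 listed genes, and its receptors went in both directions. Trem3, the neighbour of Trem1, was at 1.84 FPKM in spleen and 12.7 FPKM in lung, 6.94-fold higher in lung. Treml4, at 22.4 in spleen and 6.60 FPKM in lung, and Treml2, at 10.8 and 4.33 FPKM, were more than 2-fold lower in lung. In spleen Treml4 and Treml2 were each higher per length than Trem1 (1.03 FPKM) and Trem2 (0.109 FPKM), whereas in lung Trem1 (14.8 FPKM) and Trem2 (151 FPKM) were higher than both. No explanation was tested for this difference within the cluster.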
